A study of Mus musculus with 15 samples.

Results

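The Notch genes described here are 10 genes of 55359 in the deposited matrix, taken by gene name: the receptors Notch1, Notch2 and Notch3, the ligands Dll1, Dll3, Dll4 and Jag1, and the transcription factors Hes1, Hes6 and Hey1. Each name had 1 row. Poly-A RNA of 15 mouse samples, 3 in each of 5 groups, was sequenced from both ends. Values are normalized counts, that is, reads counted per gene and divided by a size factor of the sample.

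The groups compare large cell neuroendocrine carcinoma (LCNEC) and small cell lung carcinoma (SCLC) as cultured cells and as tumors. 46LCNEC_cell is a single adherent line, grown from a lung tumor of a QKO mouse that had received Ad-CMVcre into the trachea, an adenovirus in which a promoter active in most cells drives Cre. 57SCLC_cell is a single line growing as floating aggregates, from a lung tumor of a QKO mouse given Ad-K5cre, in which the keratin 5 promoter, a promoter of basal epithelial cells, drives Cre. QKO mice carry, among their engineered alleles, floxed Rb1 and Trp53 and a null Rbl1. 46LCNEC_allo and 57SCLC_allo are tumors that grew under the skin of immunocompetent QKO mice after injection of the same lines, so the hosts carry the QKO alleles too, and host vessels, stroma and immune cells are part of each tumor. Lung is normal lung of littermates. The source mouse of 46LCNEC was adult by the study's text, and no other age and no sex is given in the sources used here. The cell samples are dishes (46LCNEC) or flasks (57SCLC) A, B and C of 1 passage of each line, so p-values for them measure the spread between parallel cultures. The titles of the cell samples carry different dates for the lines, so date and line cannot be told apart there. The last field of these dates also steps by 1 from A to C, and whether it is a true date is not stated.

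Notch receptors are membrane proteins that are cut when a ligand on a neighboring cell pulls on them. The freed intracellular part enters the nucleus, binds Rbpj and turns on genes such as the repressors Hes1 and Hey1, which hold back neuronal and neuroendocrine programs. In the lung the pathway is known for separating neuroendocrine from other airway cells, and in blood vessels for separating tip from stalk and artery from vein.

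Upstream sequences of a target gene, Hes1, and of a ligand, Dll3, are shown because Hes1 is the classic readout of the pathway and Dll3 was high in 57SCLC alone. Each runs 5′ to 3′ and ends at the base before the start of the GENCODE canonical transcript, in build GRCm39. Capitals mark letters of 3 motifs searched on both strands: the Rbpj core TGGGAA, the E-box CAGCTG, and the N-box CACNAG bound by Hes proteins.
Hes1 (chr16:29883877-29884126, plus strand): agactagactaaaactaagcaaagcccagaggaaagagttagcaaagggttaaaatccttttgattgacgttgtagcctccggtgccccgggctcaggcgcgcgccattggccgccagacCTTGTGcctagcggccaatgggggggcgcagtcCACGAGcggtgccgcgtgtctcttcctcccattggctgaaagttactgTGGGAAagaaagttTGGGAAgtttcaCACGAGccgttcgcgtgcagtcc
Dll3 (chr7:28001674-28001923, minus strand): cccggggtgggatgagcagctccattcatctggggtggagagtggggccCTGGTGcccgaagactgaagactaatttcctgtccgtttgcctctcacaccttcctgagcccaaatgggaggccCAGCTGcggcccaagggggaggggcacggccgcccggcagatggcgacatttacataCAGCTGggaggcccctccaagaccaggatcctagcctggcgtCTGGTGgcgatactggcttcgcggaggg

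Within 250 bases upstream of the start, Hes1 held 2 matches of the Rbpj core and 3 of the N-box, and Dll3 held 2 of the E-box and 2 of the N-box. Of 21770 windows of this length upstream of protein-coding genes, 22.7% held the Rbpj core, 11.9% the E-box and 36.5% the N-box. No match overlapped another in the sequences shown. A match describes letters in a window and does not show binding.

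Depth ranged from 9480244 to 44876572 reads per sample, with a median of 26502525, and a group was taken as not detected for a gene when each sample had at most 3 reads (counting error only). Flask C of 57SCLC_cell stood apart from flasks A and B: a chi-square test of their reads gave 144 per degree of freedom for C against A and 127 for C against B, beside 2.80 for A against B. Member calls that changed without it are named, and other values of 57SCLC_cell include it unless stated. The neuroendocrine label was checked on Chga, Syp, Insm1, Calca, Scg3, Elavl4 and Ncam1. All 7 were above Lung in both 57SCLC groups. In 46LCNEC_cell, of 6 markers tested, only Ncam1, a neural cell adhesion molecule, was above Lung (28614 to 31510 normalized counts), the other 5 were below it, and Scg3 was at the floor. In 46LCNEC_allo Ncam1 was again the 1 marker above Lung (3058 to 7384), and 4 were below.

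**Figure D1:**
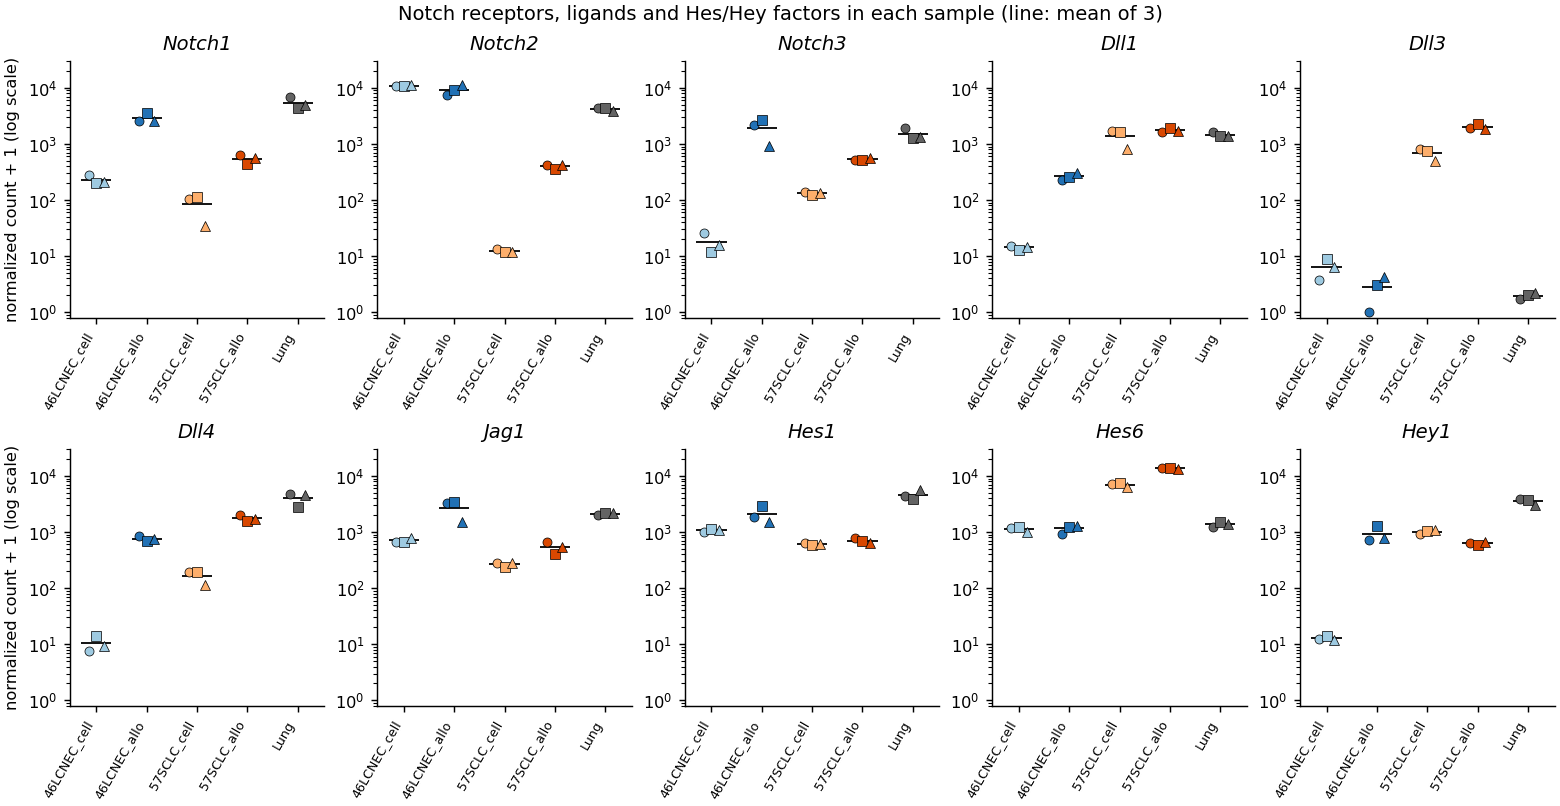
Normalized count plus 1 (log scale) of the 10 Notch genes in each of the 15 samples, with a line at the mean of the 3 samples of a group. Notch2 is at 7589 or more in both 46LCNEC groups and at 10.9 to 12.5 in 57SCLC_cell, Dll3 is at 493 or more in the 6 57SCLC samples and at 7.73 or less in the others, and Hey1 is at 10.8 to 13.2 in 46LCNEC_cell and at 575 or more elsewhere.

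Notch1 (ENSMUSG00000026923, chromosome 2, 26347915 to 26406675), which can drive or suppress tumors depending on the tissue, had 281, 201 and 206 normalized counts in 46LCNEC_cell and 105, 110.4 and 33.3 in 57SCLC_cell. It had 2521, 3570.2 and 2573 in 46LCNEC_allo (tumors 312, 319 and 321), 632, 437 and 561 in 57SCLC_allo (tumors 275, 316 and 317), and 6869, 4346 and 4914 in Lung (CT3, CT4 and CT5). No groups overlapped, and the order from high to low was Lung, 46LCNEC_allo, 57SCLC_allo, 46LCNEC_cell and 57SCLC_cell.

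Notch2 (ENSMUSG00000027878, chromosome 3, 97920800 to 98057677), a receptor of epithelial and mesenchymal cells, had 10599, 10724 and 11171 normalized counts in 46LCNEC_cell and 12.5, 10.9 and 10.9 in 57SCLC_cell. In the tumors it had 7589, 9117 and 11302 in 46LCNEC_allo and 428, 349.7 and 424 in 57SCLC_allo, and Lung had 4448, 4422 and 3946. The 46LCNEC groups were highest and overlapped each other. The widest step between neighboring groups, a ratio of means of 35.0, lay between 57SCLC_allo and 57SCLC_cell.

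Notch3 (ENSMUSG00000038146, chromosome 17, 32339794 to 32385893), the receptor of pericytes and vascular smooth muscle, had 25.3, 11.04 and 14.6 normalized counts in 46LCNEC_cell and 137, 124 and 131 in 57SCLC_cell. The tumors had 2158, 2711 and 925 (46LCNEC_allo) and 519, 519.5 and 569 (57SCLC_allo), and Lung had 1889, 1261 and 1312. Tumor 321 was the lowest of 46LCNEC_allo, whose range overlapped that of Lung. The order of the lines was opposite in culture and in tumors.

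Dll1 (ENSMUSG00000014773, chromosome 17, 15587276 to 15597134), an activating ligand, had 14.1, 12.1 and 13.8 normalized counts in 46LCNEC_cell and 1674, 1647 and 815 in 57SCLC_cell. It had 230.5, 258 and 299.8 in 46LCNEC_allo, 1639.8, 1927 and 1729 in 57SCLC_allo, and 1624, 1369 and 1411 in Lung. Both 57SCLC groups and Lung thus lay together near the top, with overlapping ranges for 57SCLC_cell and Lung, and both 46LCNEC groups lay below them.

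Dll3 (ENSMUSG00000003436, chromosome 7, 27992978 to 28001673), a divergent ligand that stays mostly inside the cell and blocks Notch signaling there, is known as a surface target of drugs against SCLC. It had 812, 750.3 and 493 normalized counts in 57SCLC_cell and 1953, 2292 and 1812 in 57SCLC_allo. In 46LCNEC_cell it had 2.81, 7.73 and 5.38, and in 46LCNEC_allo 0, 2.11 and 3.32. Lung had 0.747, 0.997 and 1.17, which is 1 read in each sample. 46LCNEC_allo and Lung were therefore at the floor of 3 reads.

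Dll4 (ENSMUSG00000027314, chromosome 2, 119156170 to 119166443), the ligand of endothelial tip cells, had 6.57, 13.2 and 8.46 normalized counts in 46LCNEC_cell and 195, 192 and 114 in 57SCLC_cell. It had 836, 683 and 760.0 in 46LCNEC_allo, 2044, 1557 and 1706 in 57SCLC_allo, and 4734, 2779 and 4583 in Lung. No groups overlapped, and each tumor group was above both cultures.

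Jag1 (ENSMUSG00000027276, chromosome 2, 136923373 to 136958693), a ligand of the Serrate family, had 664, 673 and 796 normalized counts in 46LCNEC_cell, 3234, 3417 and 1480.2 in 46LCNEC_allo, and 2002, 2186 and 2214 in Lung. It had 281, 239 and 284 in 57SCLC_cell, the lowest group, and 668, 413 and 537 in 57SCLC_allo, which overlapped 46LCNEC_cell. As for Notch3, tumor 321 was the lowest of 46LCNEC_allo, and that group overlapped Lung.

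Hes1 (ENSMUSG00000022528, chromosome 16, 29882134 to 29886643), whose upstream sequence holds both Rbpj cores, varied least among the members: its group means spanned 2.91 on the log2 scale. It had 1008, 1132 and 1065 normalized counts in 46LCNEC_cell, 631, 584 and 600.3 in 57SCLC_cell, 1878, 2911 and 1518 in 46LCNEC_allo, and 771, 696 and 629 in 57SCLC_allo. Lung was highest with 4424, 3887 and 5543, and only the 57SCLC groups overlapped.

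Hes6 (ENSMUSG00000067071, chromosome 1, 91339204 to 91342103), an inhibitor of Hes1 that favors neuronal differentiation, had 7102, 7429 and 6406 normalized counts in 57SCLC_cell and 13602, 14049.9 and 13217 in 57SCLC_allo. The other groups lay together, with 1181, 1204 and 982 in 46LCNEC_cell, 936, 1241 and 1292 in 46LCNEC_allo, and 1239, 1533 and 1416 in Lung. All 6 57SCLC samples were above the other 9.

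Hey1 (ENSMUSG00000040289, chromosome 3, 8726956 to 8732385), a target of Notch in vessels and other tissues, had 11.26, 13.2 and 10.8 normalized counts in 46LCNEC_cell against 931, 1025 and 1074 in 57SCLC_cell. It had 726, 1265 and 789 in 46LCNEC_allo, 646, 575 and 656 in 57SCLC_allo, and 3899, 3653 and 3028 in Lung. Lung was highest, 46LCNEC_cell was lowest, and 57SCLC_cell overlapped 46LCNEC_allo.

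In release 39 of the GENCODE annotation, exons of 9 of the 10 members, all but Dll3, overlap an exon of another gene, such as Fam120b on the strand opposite to Dll1. The gene that overlaps Notch2, Gm42820, lies on the same strand, where a strand setting would not separate the reads. The authors counted with release 27, in which the overlaps can differ. The strand setting of the counting is not stated in the sources used here, so reads of pairs on opposite strands cannot be told apart. In bulk samples, fewer cells of a type and less RNA per cell cannot be told apart either.

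The tests used limma on log2 values (normalized count + 1). A call needed a fold change of at least 2 together with a p of at most 0.01 after Benjamini-Hochberg adjustment over every gene tested. Between the cultured lines, 9 of the 10 members were called: 6 were higher in 57SCLC_cell, where 23.9% of 16920 genes were called higher, and 3 were lower, where 22.2% were. Notch2 was lower by the widest margin (log2 fold change −9.77 ± 0.10 SE, adjusted p = 1.92e-09), Notch1 was lower by less (−1.62 ± 0.44, adjusted p = 0.00957) and so was Jag1 (−1.40 ± 0.12, adjusted p = 1.42e-05). Dll1 (6.52 ± 0.28, adjusted p = 2.72e-07), Dll4 (4.02 ± 0.32, adjusted p = 8.85e-06), Hey1 (6.31 ± 0.16, adjusted p = 1.67e-08), Notch3 (2.95 ± 0.30, adjusted p = 3.67e-05) and Hes6 (2.64 ± 0.10, adjusted p = 1.42e-07) were higher. Dll3 was also higher (6.81 ± 0.34, adjusted p = 5.81e-07), against 46LCNEC_cell samples of few reads. Hes1 differed by less than the fold asked for (−0.82 ± 0.08, adjusted p = 3.96e-05).

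The call of Notch1 in the cells is the least firm of these. Its difference was −1.07 without flask C (adjusted p = 0.00131), and its adjusted p passed 0.01 when any 1 of the 46LCNEC_cell dishes was left out (0.0255 to 0.0476) and with scaling by library size (0.0213) or a pseudocount of 0.1 (0.0150). The other 8 calls held without flask C, with log2 fold changes of 6.86 for Dll1, 7.03 for Dll3 and 4.27 for Dll4.

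Flask C was lower than the mean of flasks A and B for Notch1 (log2 ratio −1.66), Dll1 (−1.03), Dll4 (−0.76) and Dll3 (−0.66). It was within 0.2 of that mean for Notch2, Notch3, Jag1, Hes1, Hes6 and Hey1. Of 13796 genes with a mean of at least 30 normalized counts in the flasks, 5.39% were lower in flask C by more than 0.5 and 10.9% were higher by more than 0.5. The 3 Delta ligands and Notch1 were thus lower together in this flask, and Hes1, Hes6 and Hey1 stayed near the other flasks. This was noticed after the values were seen, and it rests on 1 flask.

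Between the tumors, 9 of the 10 members were called again: 4 were higher in 57SCLC_allo, where 16.1% of 17502 genes were, and 5 were lower, where 14.2% were. With scaling by library size this split over all genes was 3523 higher and 1961 lower, against 2821 and 2491 with the authors' size factors, and the median over all genes moved by 0.26 (log2). All 3 receptors among the 10 genes were lower in 57SCLC_allo: Notch2 (−4.53 ± 0.17, adjusted p = 7.97e-06), Notch1 (−2.41 ± 0.19, adjusted p = 9.78e-05) and Notch3 (−1.71 ± 0.38, adjusted p = 0.00792). The 3 Delta ligands were higher. Dll1 differed by 2.75 ± 0.14 (adjusted p = 1.91e-05) and Dll4 by 1.214 ± 0.14 (adjusted p = 0.000454), and Dll3 was at least 508-fold higher, with 46LCNEC_allo at the floor (adjusted p = 2.56e-05). Jag1 was lower (−2.26 ± 0.35, adjusted p = 0.00167), as was Hes1 (−1.54 ± 0.24, adjusted p = 0.00173), and Hes6 was higher (3.57 ± 0.14, adjusted p = 8.7e-06). Hey1 was not called (−0.52, 95% interval −1.05 to 0.0051, adjusted p = 0.0839).

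The call of Notch3 in the tumors rested on few samples. It was lost without tumor 312, 319, 275, 316 or 317 (adjusted p from 0.0166 to 0.0328) and with scaling by library size (−1.45, adjusted p = 0.0123). The call of Hes1 was lost without tumor 317, at an adjusted p of 0.01005.

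**Figure D2:**
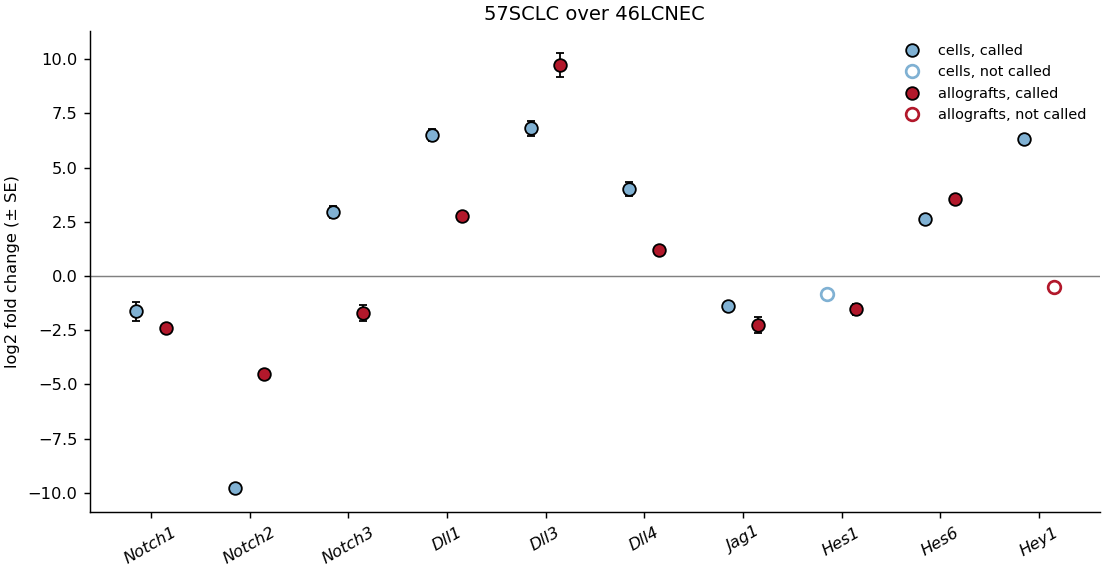
Log2 fold change of 57SCLC over 46LCNEC (± SE, limma) for each Notch gene, in cells and in allografts, with filled points for genes past both thresholds. Notch3 is at 2.95 in cells and −1.71 in allografts, Hey1 at 6.31 and −0.52, and Dll3 is high in both, where its fitted value rests on 46LCNEC samples of few reads.

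From cells to tumor of the same line, limma called 0 of the members tested lower in either line, as did edgeR and DESeq2. Over all genes tested, limma called 8.45% lower in 46LCNEC and 2.29% in 57SCLC. At an unadjusted p under 0.05, 0 members were lower in 46LCNEC and 1, Hey1, in 57SCLC. In 46LCNEC, 6 of the 9 members tested were higher in the tumors, where 14.4% of 16375 genes were called higher and 8.45% lower. Notch3 (6.69 ± 0.46, adjusted p = 4.6e-05), Dll4 (6.24 ± 0.29, adjusted p = 9.43e-06) and Hey1 (6.14 ± 0.27, adjusted p = 7.83e-06) rose most, followed by Dll1 (4.19 ± 0.24, adjusted p = 2.06e-05), Notch1 (3.65 ± 0.19, adjusted p = 1.65e-05) and Jag1 (1.84 ± 0.31, adjusted p = 0.00231). The call of Jag1 was lost without dish A, B or C (adjusted p from 0.0103 to 0.0147). Notch2 (−0.23 ± 0.15), Hes1 (0.92 ± 0.23) and Hes6 (0.03 ± 0.16) were not called, with adjusted p of 0.235, 0.0117 and 0.868, and without tumor 321 Hes1 was called at 1.13. Dll3 was not tested, as too few samples reached 10 normalized counts.

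In 57SCLC, 5 of 10 members were higher in the tumors, where 14.4% of 17078 genes were called higher and 2.29% lower. Notch2 rose by 5.01 ± 0.20 (adjusted p = 6.46e-07), Dll4 by 3.43 ± 0.22 (adjusted p = 6.48e-06), Notch1 by 2.86 ± 0.43 (adjusted p = 0.00101), Notch3 by 2.03 ± 0.12 (adjusted p = 5.15e-06) and Dll3 by 1.58 ± 0.19 (adjusted p = 0.00027). Without flask C, Notch1 rose by 2.31, Dll4 by 3.18 and Dll3 by 1.36, and each kept its call. In a model of all 15 samples the adjusted p of Dll3 was 0.0163. Hes6 (0.97 ± 0.09, adjusted p = 6.38e-05) and Jag1 (0.98 ± 0.18, adjusted p = 0.00342) stayed just under the fold asked for, and Hes6 was called at 1.01 without flask B. Jag1 was called at 1.02 without flask C, at 1.16 without tumor 316 and at 1.00 with the edgeR test. Hey1 differed by −0.69 ± 0.10, Dll1 by 0.43 ± 0.26 and Hes1 by 0.20 ± 0.11, none of them called. Without flask C, Dll1 differed by 0.085.

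**Figure D3:**
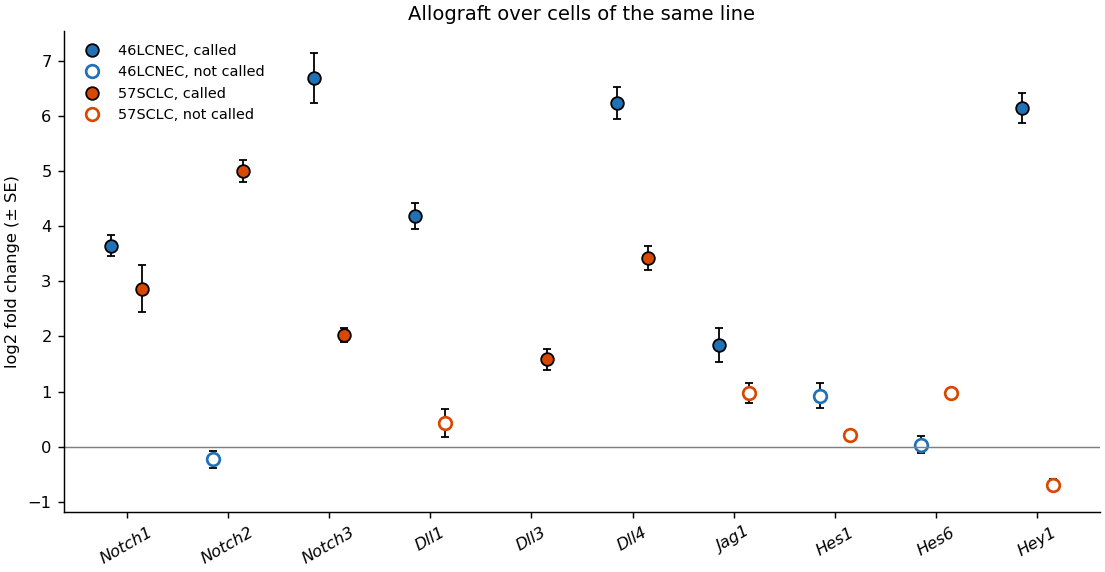
Log2 fold change of allograft over cells (± SE, limma) for each Notch gene in 46LCNEC and in 57SCLC, with filled points for genes past both thresholds and no point for Dll3 in 46LCNEC, which was not tested. Hey1 is at 6.14 in 46LCNEC and −0.69 in 57SCLC, and Notch2 is at −0.23 and 5.01.

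The change from cells to tumor was then compared between the lines with an interaction term over 12 samples, in which 10.8% of 18440 genes were called higher and 6.78% lower. Of the 10 members, 2 were called higher and 4 lower. Notch2 changed more in 57SCLC than in 46LCNEC (5.24 ± 0.20, adjusted p = 7.59e-09). The term for Dll3 was 2.91 ± 0.69 (adjusted p = 0.00599), a fit that rests on 46LCNEC samples of few reads. Dll3 rose in 57SCLC, while it had 3, 7 and 7 reads in 46LCNEC_cell and 0, 2 and 3 in 46LCNEC_allo. Hey1 (−6.83 ± 0.27, adjusted p = 1.15e-08), Notch3 (−4.66 ± 0.51, adjusted p = 2.99e-05), Dll1 (−3.77 ± 0.34, adjusted p = 6.29e-06) and Dll4 (−2.80 ± 0.37, adjusted p = 0.00012) changed more in 46LCNEC. The call of Dll3 was lost with a pseudocount of 0.1 and without each of 8 of the 12 samples, 1 of them flask C, without which Notch1 was called (−1.34, adjusted p = 0.00436). Without tumor 321, Jag1 (−1.25) and Hes6 (1.02) were called as well, and without dish C so was Hes6 (1.03).

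Summed markers of vessel cells were higher in the tumors than in the cells of the same line. Some were also expressed in the cultured 46LCNEC line, where Pdgfrb had 6129 to 6718 and Kdr 274 to 316 normalized counts. In that line these markers are therefore not of host cells alone. The summed level of 8 endothelial markers was 406 to 490.0 normalized counts in 46LCNEC_cell, 128 to 135 in 57SCLC_cell, 7044 to 11840 in 46LCNEC_allo, 3400 to 4761 in 57SCLC_allo and 112893 to 124595 in Lung. All 8 were called higher in each tumor group than in its cells, and Cdh5, Emcn, Cldn5 and Tie1 were at the floor in both cultures. The sum of 6 pericyte and smooth muscle markers was 6643 to 7313 in 46LCNEC_cell, 228 to 294 in 57SCLC_cell, 16050 to 32173 in 46LCNEC_allo, 7578 to 11545 in 57SCLC_allo and 17405 to 20771 in Lung, with 4 of 6 called higher in 46LCNEC_allo and 6 of 6 in 57SCLC_allo than in their cells. The part of vessel cells in the members' changes from cells to tumor was not tested.

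Stroma and immune markers also moved. In 46LCNEC_cell, Col1a1 had 19769 to 22399 and Col1a2 46908 to 54461 normalized counts, so these too are not of host cells alone in that line. The sum of 6 fibroblast markers was 67856 to 78011 in 46LCNEC_cell, with Lum and Dpt at the floor, and 22.4 to 28.4 in 57SCLC_cell, with Dcn, Lum and Dpt at the floor. It was 298303 to 667090 in 46LCNEC_allo, 30658 to 48095 in 57SCLC_allo and 19110 to 24023 in Lung. The sum of 6 leukocyte markers was 329 to 383 and 229.8 to 257 in the cells, 8023 to 14506 and 2768 to 4596 in the tumors and 8534 to 9482 in Lung. All 6 fibroblast markers were called higher in each tumor group than in its cells, as were the leukocyte markers tested (4 in 46LCNEC and 5 in 57SCLC). Itgam was listed at 0 in all samples, Lung included. Its exons overlap those of Gm49368 on the same strand, so this value does not show that Itgam was absent. Tumor 321, lowest of its group for Notch3 and Jag1, was lowest for the pericyte (16050) and fibroblast (298303) sums and highest for the leukocyte sum (14506). Tumor 319 was lowest of that group for the endothelial sum (7044) and for Dll4 (683). It was highest for Notch1 (3570.2), Notch3 (2711), Jag1 (3417), Hes1 (2911) and Hey1 (1265). Tumor 312 was highest for the pericyte (32173) and fibroblast (667090) sums, with Notch3 at 2158 and Jag1 at 3234. The part of these cells in the members' values was not tested.

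In 57SCLC_cell, the endothelial markers Cdh5, Kdr, Emcn, Cldn5 and Tie1 were at the floor, while Pecam1 had 35.0 to 42.7, Tek 27.7 to 44.3 and Esam 45.3 to 64.9 normalized counts. Of the pericyte and smooth muscle markers, Rgs5 and Acta2 were at the floor, Pdgfrb had 1.56 to 3.27, Myh11 25.6 to 61.5, Cspg4 39.2 to 45.9 and Des 153 to 185. Hey1 (931 to 1074), Dll4 (114 to 195) and Notch3 (124 to 137) were read in the same flasks, and the part of such cells in their values was not tested.

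**Figure D4:**
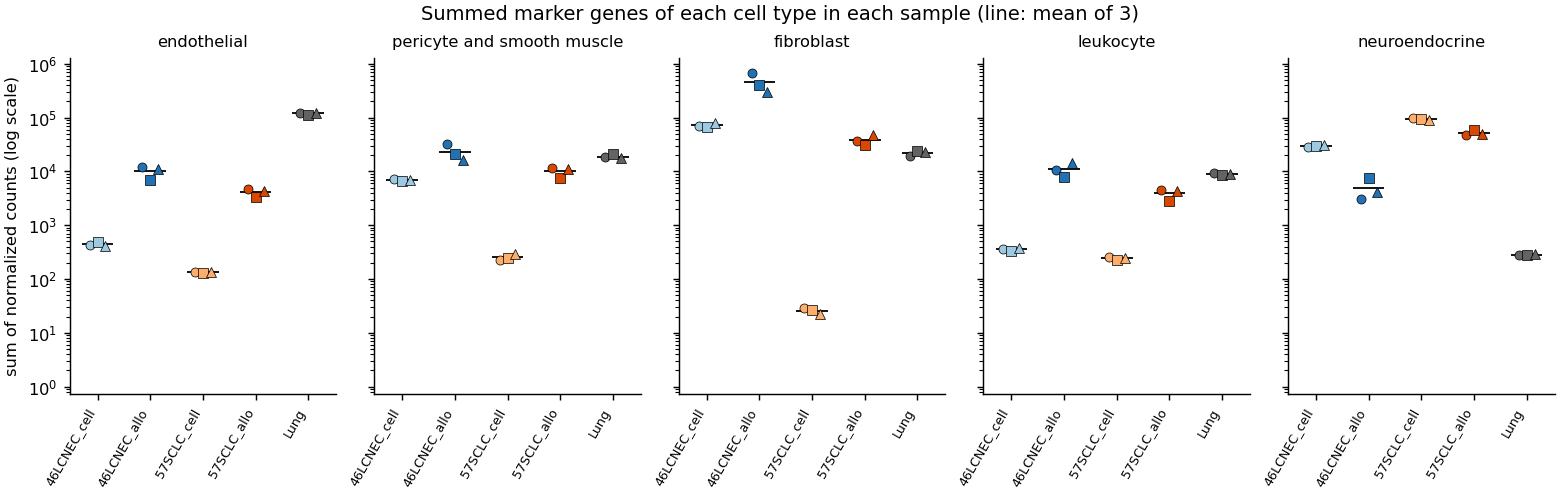
Sum of the normalized counts (log scale) of the marker genes of 5 cell types in each of the 15 samples, with a line at the mean of a group. Endothelial markers are at 128 to 490.0 in the cultures, at 3400 to 11840 in the tumors and at 112893 or more in Lung, and fibroblast markers are at 67856 or more in 46LCNEC_cell and at 28.4 or less in 57SCLC_cell.

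The 4 comparisons against Lung share the 3 Lung samples. In each of them, all 8 endothelial, all 6 alveolar epithelial and all 5 club and ciliated cell markers were called lower than in Lung, with endothelial medians of −3.44 in 46LCNEC_allo, −4.71 in 57SCLC_allo, −9.17 in 46LCNEC_cell and −11.55 in 57SCLC_cell (log2). Of the 6 pericyte and smooth muscle markers, 2 were higher and 2 lower in 46LCNEC_allo, 1 higher and 3 lower in 57SCLC_allo, 5 lower in 46LCNEC_cell and 6 lower in 57SCLC_cell. Of the 6 fibroblast markers, 3 were higher and 1 lower in 46LCNEC_allo, 2 higher and 3 lower in 57SCLC_allo, 2 higher and 4 lower in 46LCNEC_cell and 6 lower in 57SCLC_cell. The part of these cell types in the members' differences from Lung was not tested. In 46LCNEC_allo, 1 of the 9 members tested was higher than in Lung, where 13.4% of 18033 genes were called, and 4 were lower, where 22.1% were. Notch2 was higher (1.11 ± 0.16, adjusted p = 0.00109), and stood at 0.96 without tumor 321. Dll1 (−2.48 ± 0.14, adjusted p = 2.76e-05), Dll4 (−2.37 ± 0.22, adjusted p = 0.000168), Hey1 (−1.96 ± 0.23, adjusted p = 0.000434) and Hes1 (−1.17 ± 0.26, adjusted p = 0.00724) were lower. The call of Hes1 was lost with the edgeR test (adjusted p = 0.0136), with TMM scaling (0.0113), without tumor 312 or 321 and without any 1 Lung sample (0.0137 to 0.0302). Notch1 (−0.89 ± 0.21, adjusted p = 0.0107), Notch3 (0.26 ± 0.40), Jag1 (0.25 ± 0.32) and Hes6 (−0.28 ± 0.16) were not called, and without tumor 319 Notch1 was called at −1.05.

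In 57SCLC_allo, 2 of 10 members were higher than in Lung, where 18.9% of 18517 genes were called, and 7 were lower, where 26.9% were. Hes6 was higher (3.29 ± 0.09, adjusted p = 8.52e-08), and Dll3 was at least 575-fold higher (adjusted p = 4.78e-08). Notch2 (−3.41 ± 0.10, adjusted p = 1.22e-07), Notch1 (−3.29 ± 0.19, adjusted p = 2.41e-06), Hes1 (−2.71 ± 0.14, adjusted p = 1.23e-06), Hey1 (−2.49 ± 0.11, adjusted p = 6.01e-07) and Jag1 (−2.01 ± 0.16, adjusted p = 1.46e-05) were lower by more than 4-fold, and Notch3 (−1.45 ± 0.16, adjusted p = 7.21e-05) and Dll4 (−1.16 ± 0.21, adjusted p = 0.00134) by less. With scaling by library size Dll4 stood at −0.95 and was not called. Dll1 was not called (0.27, 95% interval 0.040 to 0.49, adjusted p = 0.0371).

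In 46LCNEC_cell, 1 of 9 members tested was higher, where 20.6% of 18142 genes were called, and 7 were lower, where 35.0% were. Notch2 was the member above Lung (1.34 ± 0.07, adjusted p = 1.88e-07), the 7 below it ran from −1.59 ± 0.09 for Jag1 to −8.61 ± 0.28 for Dll4, and Hes6 was not called (−0.31 ± 0.11, adjusted p = 0.0241). In 57SCLC_cell, 2 of 10 members were higher, where 21.1% of 18467 genes were called, and 7 were lower, where 32.7% were. Hes6 (2.32 ± 0.10, adjusted p = 3.18e-07) and Dll3 (at least 195-fold, adjusted p = 6.05e-08) were above Lung, the 7 below it ran from −1.80 ± 0.11 for Hey1 to −8.42 ± 0.13 for Notch2, and Dll1 was not called (−0.16, 95% interval −0.79 to 0.47). Without flask C, Dll1 stood at 0.18 and was again not called.

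Levels of different genes were set side by side as normalized counts per kb of exon. Summed over Notch1, Notch2 and Notch3, this level was 980 ± 24.6 (SD, n = 3) in 46LCNEC_cell against 21.4 ± 3.06 in 57SCLC_cell, and 1246 ± 140 in 46LCNEC_allo against 133 ± 11.9 in 57SCLC_allo, while Lung had 922 ± 143. Notch2 made up 98.2% ± 0.43 of it in 46LCNEC_cell and 66.4% ± 10.1 in 46LCNEC_allo, and Notch3 made up 69.0% ± 10.9 in 57SCLC_cell and 44.8% ± 3.57 in 57SCLC_allo, while Notch1 and Notch2 had 40.6% ± 3.99 and 41.6% ± 5.27 in Lung. In flask C of 57SCLC_cell the Notch3 share was 81.5%, against 64.2% and 61.3% in flasks A and B. The receptor Notch4, which is not among the 10 genes, was at 2.97 per kb or less in 46LCNEC_cell, 55.4 to 74.0 in 57SCLC_cell, 99.98 to 168 in 46LCNEC_allo, 101 to 125 in 57SCLC_allo and 603 to 649 in Lung. With it, the receptor sums were 982 ± 24.9 in 46LCNEC_cell against 88.7 ± 13.4 in 57SCLC_cell, and 1383 ± 109 in 46LCNEC_allo against 249 ± 25.1 in 57SCLC_allo, while Lung had 1541 ± 169. Notch4 then made up 75.9% ± 0.66 of the sum in 57SCLC_cell, 46.4% ± 0.74 in 57SCLC_allo and 40.4% ± 2.59 in Lung, the highest share of the 4 receptors in each, and Notch2 kept the highest share in both 46LCNEC groups (97.9% ± 0.48 in the cells and 59.7% ± 9.12 in the tumors).

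Summed over Dll1, Dll3, Dll4 and Jag1, the level per kb was 126 ± 12.4 in 46LCNEC_cell against 590.0 ± 163 in 57SCLC_cell, and 701 ± 172 in 46LCNEC_allo against 1557 ± 79.4 in 57SCLC_allo, while Lung had 1676 ± 286. Jag1 made up 94.6% ± 1.25 of it in 46LCNEC_cell and 63.0% ± 11.9 in 46LCNEC_allo. Of these 4 genes, Dll1 (46.3% ± 4.79) and Dll3 (38.4% ± 1.65) had the highest shares in 57SCLC_cell, Dll3 (42.5% ± 3.81) and Dll4 (28.8% ± 3.92) in 57SCLC_allo, and Dll4 (60.2% ± 6.86) in Lung. The sum over the 4 genes was 403 in flask C of 57SCLC_cell, against 700 and 667 in flasks A and B. The ligand Jag2, also not among the 10 genes, was at 292 to 349.5 per kb in 46LCNEC_cell, 73.2 to 363 in 46LCNEC_allo, 1379 to 1479 in 57SCLC_cell, 1510.1 to 1547 in 57SCLC_allo and 329.6 to 394 in Lung. Counted with the others, it made up 71.2% ± 3.45 of the ligand sum in 46LCNEC_cell, with Jag1 then at 27.2% ± 3.23, 71.1% ± 5.44 in 57SCLC_cell and 49.5% ± 1.62 in 57SCLC_allo, the highest share in each. The ligand sums with Jag2 were 439.9 ± 26.5 in 46LCNEC_cell against 2018 ± 209 in 57SCLC_cell, and 881 ± 279 in 46LCNEC_allo against 3081 ± 59.3 in 57SCLC_allo. Jag1 in 46LCNEC_allo (50.8% ± 10.6) and Dll4 in Lung (a mean of 49.7%) kept the highest shares. Both genes were added to the sums after their values were seen. The log2 ratio of Hes6 to Hes1 per kb was 0.30 ± 0.17 in 46LCNEC_cell against 3.76 ± 0.13 in 57SCLC_cell, and −0.59 ± 0.52 in 46LCNEC_allo against 4.52 ± 0.13 in 57SCLC_allo, while Lung had −1.48 ± 0.33.

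**Figure D5:**
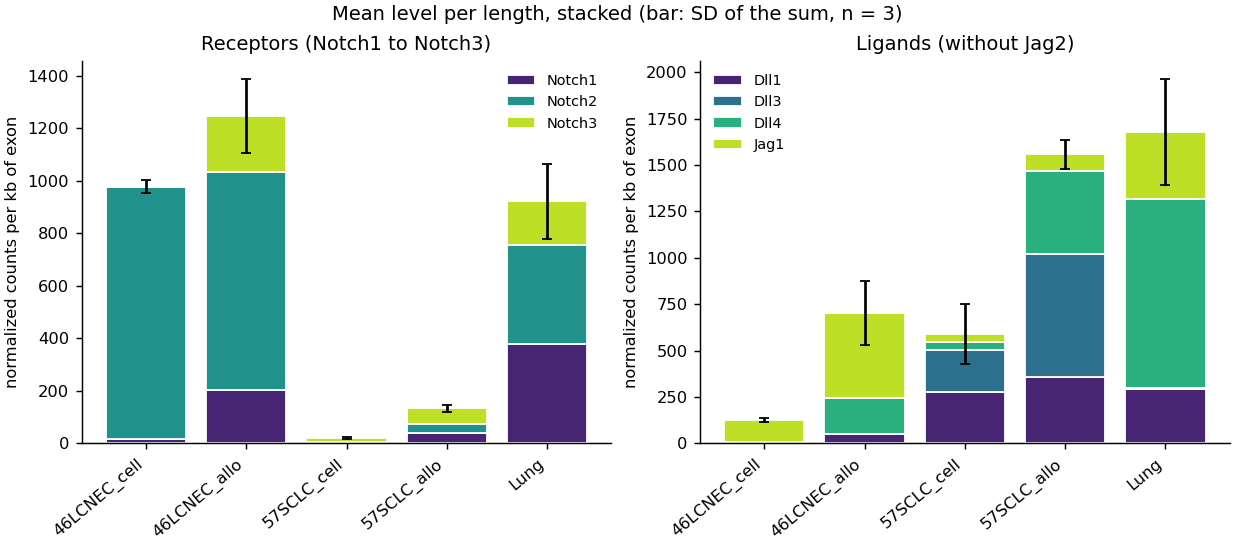
Mean normalized counts per kb of exon of Notch1 to Notch3 (left) and of Dll1, Dll3, Dll4 and Jag1 (right), stacked by gene and without Notch4 and Jag2, with the SD of the sum over the 3 samples of a group. The receptor bar is 21.4 in 57SCLC_cell and 980 in 46LCNEC_cell, where nearly all of it is Notch2, and Dll3 is visible in the 57SCLC ligand bars only.

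The lists of other pathway genes held 44 genes. Between the cultured lines, 15 of 38 tested were called higher in 57SCLC_cell, beside 23.9% of all genes, and 5 lower, beside 22.2%, with a median log2 fold change of 0.087 beside 0.00028 over all genes. Between the tumors, 8 of 40 tested were higher in 57SCLC_allo, beside 16.1% of all genes, and 6 lower, beside 14.2%, with a median of −0.11 beside 0.015. From cells to tumor, 5 of 36 rose and 2 fell in 46LCNEC, beside 14.4% and 8.45% of all genes, and 5 of 37 rose in 57SCLC, beside 14.4%. Between the cultured lines the list thus held a larger share of higher genes and a smaller share of lower genes than all genes did, and the other shares lay near the background. Of 9 genes of the proteases that cut Notch, 2 were higher and 1 lower in 57SCLC_cell, which is no larger a share than the 23.9% and 22.2% of all genes.

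Among other ligands and receptors, Dner, a neuronal ligand-like protein, was higher in 57SCLC in both settings (8.94 in cells, 8.41 in tumors): it had 4368, 4330.3 and 5122 normalized counts in 57SCLC_cell against 7.51, 4.41 and 16.9 in 46LCNEC_cell. Jag2, the second Serrate-type ligand, was also higher (2.19 and 3.44), with 9781 to 10971 normalized counts in the 6 57SCLC samples and 519 to 2578 in the 6 of 46LCNEC. Dlk1, a noncanonical ligand that can dampen Notch, was at the floor in 57SCLC_cell and at least 236-fold higher in 46LCNEC_cell (405 to 457). Between the tumors Dlk1 was lower in 57SCLC_allo (−2.38).

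Genes that modify the receptors or ligands differed too. The fringe enzymes Mfng and Lfng, which add sugars to Notch and shift its response from Jagged to Delta ligands, were higher in 57SCLC (8.41 and 3.49 for Mfng, 1.40 and 1.97 for Lfng, in cells and in tumors). The ligases Neurl1b (3.42 and 2.50) and Neurl1a (1.66 and 2.38), which act on Delta ligands, were higher too. Numbl, an antagonist of Notch at the membrane, was lower (−2.98 and −2.27), and so was the coactivator Maml2 (−5.79 and −2.94), of which flask C had 119 and flasks A and B 33.8 and 27.1 normalized counts. Dtx1, a Notch-responsive ligase, was higher in 57SCLC (3.34 and 6.72).

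Of the other Hes and Hey genes, Heyl, known from mural cells, was at the floor in 46LCNEC_cell and had 4581, 2261 and 1258 normalized counts in 46LCNEC_allo, at least 815-fold more. Hes5, a neural Notch target with 2 Rbpj cores in its upstream window, had 37.5 to 40.9 in 57SCLC_cell, 29.7 to 74.2 in 57SCLC_allo and at most 1 read in any 46LCNEC sample. Notch4, the endothelial receptor, had 13.2 to 26.3 in 46LCNEC_cell and 490.3 to 655 in 57SCLC_cell (4.76 ± 0.28, adjusted p = 1.57e-06), and the tumors did not differ by a called amount (−0.22 ± 0.21). These 3 were named after their values were seen. Fbxw7, which degrades Notch, was listed at 0 in all samples and Nrarp, a target gene, had at most 1 read in any, so neither was used.

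The genes closest to each member over the 15 samples were taken among 15579 genes by the root mean square difference of log2 values after each gene's own mean was subtracted. Notch2 lay nearest to Pter (0.37), Evc2 (0.43) and Arhgap28 (0.46), and Notch1 to Zbtb46 (0.56), Sema4a (0.58) and Hfe (0.59). Notch3 lay nearest to Cd200 (0.61) and to the basement membrane collagens Col4a1 (0.63) and Col4a2 (0.63). Dll1 lay nearest to Nova2 (0.39), Kcnq1 (0.43) and Mmp15 (0.52), and Dll3, at a wider distance, to Sall4 (0.78), Vwa5b1 (0.84) and Scrt1 (0.89).

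Of the remaining members, Hes6 lay nearest to B3gat2 (0.30), Olfm2 (0.37) and Caskin1 (0.41). Jag1 lay nearest to Stard5 (0.32), Rnf135 (0.39) and Plin3 (0.40). Dll4 lay nearest to Srgn (0.63), Ggt5 (0.70) and Mycn (0.72), and Hey1 to Rnf144a (0.57), Dapk2 (0.69) and the receptor Notch4 (0.71). Hes1 spanned too little between groups to be included.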

How the data were processed

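The deposited matrix holds a signal value per gene and sample, which is a normalized count: the authors used Rbowtie2 for alignment to GRCm39, featureCounts for reads per gene (GENCODE release 27) and DESeq2 for size factors, by which the reads were divided. The strand setting and the treatment of reads with several alignments are not stated. The reads were recovered by dividing each sample by its smallest step. With a tolerance of 0.02, 100% of non-zero values were whole, and depth ranged from 9480244 to 44876572 reads.

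Groups came from the sample labels. Each comparison used limma 3.58.1 (R 4.3.3, mean-variance trend) on log2(normalized count + 1) over the 6 samples compared (12 for the interaction), keeping genes that reached 10 normalized counts in 3 or more samples. On this scale the change of low genes is understated. Alternatives were edgeR 4.0.16 and DESeq2 1.42.0 on the recovered reads, library size and TMM scaling, pseudocounts of 0.1 and 5, no filter, an adjusted p of 0.05, all 15 samples in 1 model, and each sample left out. The fits were checked on simulated data. A group with at most 3 reads in each sample was at the floor, and a fold against it is its partner's mean divided by 3 reads of the shallowest sample of the group. Coordinates, exon lengths and upstream windows came from release 39 of GENCODE, which holds 54749 (98.9%) of the identifiers, and the GRCm39 genome, read in Python 3.11.15 (pandas 2.3.3, numpy 2.4.6), and figures were drawn with matplotlib 3.10.9.

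The members and lists were chosen with earlier results of these data known. All members are named in every comparison. Of each pathway list, genes called in the same direction between the lines in cells and in tumors are named, with a group mean of at least 100 normalized counts and at most 4 per list. The 3 nearest genes are named for members whose group means span at least 3 on the log2 scale. Marker lists were endothelial, pericyte and smooth muscle, fibroblast, leukocyte, neuroendocrine, alveolar epithelium, and club and ciliated cells. The last 2 marker sums were highest in Lung (224329 to 302154 and 208254 to 291429) and at most 2722 and 617 elsewhere. Some alleles of the QKO model are not reported here.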

Additional observations from a re-analysis of the deposited data

Results flagged for a closer look

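The change from cells to tumor differed between the lines for 6 members, by the interaction term of limma over 12 samples with a log2 difference of at least 1 and an adjusted p up to 0.01. Positive values mean that 57SCLC stood higher against 46LCNEC in the tumors than in the cells. Notch2 differed by 5.24 and Dll3 by 2.91, and Hey1 differed by −6.83, Notch3 by −4.66, Dll1 by −3.77 and Dll4 by −2.80. For Notch3 the difference between the lines also changed sign, from higher in 57SCLC_cell to lower in 57SCLC_allo, although the latter call was lost without any 1 of 5 tumors. The value of Dll3 depends on the pseudocount: it was 4.04 with 0.1 in place of 1 and had an adjusted p of 0.0488 there. The sums of endothelial, of pericyte and smooth muscle, and of fibroblast markers were higher in all tumors than in the cells of the same line. The part of those cell types in these differences was not tested.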

How the results depend on the processing

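Under the alternatives, 1331 of 1375 fold changes of members kept their side of the threshold, 34 lost their call and 10 gained one. Among fold changes called in the main fit or the alternative, 0 turned direction. A turn without a call in either was not counted, as for Dll1 in 57SCLC_cell against Lung, which changed sign to 0.18 without flask C. The number of members called moved by over 1.5 times in 1 setting: 5 members were called in 46LCNEC_allo against Lung, and 3 to 6 when each sample was left out in turn, with 3 called without tumor 321. Over all genes, 3738 were called between 46LCNEC_allo and 46LCNEC_cell and 2440 without dish C. With library size scaling the median over all genes moved by 0.23, 0.26, 0.21 and 0.23 (log2) in the comparisons of 57SCLC with 46LCNEC in cells and in tumors and of 57SCLC_allo and 57SCLC_cell with Lung. With TMM scaling it moved by 0.12 in 46LCNEC_cell and 0.11 in 57SCLC_cell against Lung. The letters A, B and C of the cultures were not shown to pair the samples, since the correlations of deviations were 0.092, −0.084 and −0.0062. With a replicate block of these letters 9 members were called between the cultured lines, as without it. Each line is 1 line and each group has 3 samples, so the values describe these lines. Depth limits Dll3 in 46LCNEC and Lung, where no sample had more than 7 reads.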

Other observations

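Rbpj, the DNA-binding partner of cleaved Notch, had 783 to 928 normalized counts in 46LCNEC_cell, 783 to 1069 in 57SCLC_cell, 2691 to 2982 in 46LCNEC_allo, 1527 to 1853 in 57SCLC_allo and 931 to 1199.8 in Lung, so the tumors of both lines lay above both cultures and Lung. In flask C of 57SCLC_cell, Rbpj was the highest of the 3 flasks (1069, against 783 and 841 in A and B). Its log2 ratio to the mean of flasks A and B (0.40) was below 0.5, a limit that 10.9% of 13796 genes passed upward in this flask. Adam10, a protease that cuts Notch, ranged over all 15 samples from 3710.4 to 6360.3 normalized counts.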
